A study of Drosophila melanogaster with 8 samples.

Results

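The genes described here are the expressed noncoding RNA genes that carry a CR name in macrophages sorted from Drosophila melanogaster embryos. They were taken from the deposited table as every row whose name is CR followed by digits and whose mean over all 8 libraries was at least 5 transcripts per 1000000 (TPM, a level already scaled to gene length and library size). The rule found 118 genes among 2611 rows with such a name and 17494 rows in all. The level was therefore used to choose them and is given as a description. CR40469, CR45822 and CR45258 were also named in the rule because of their difference between the genotypes, so their differences are given without a test.

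The study compared macrophages of CG9005 mutant embryos (4 libraries) with macrophages of wild type embryos (WT, 4 libraries), and its title asks about a genetic program that powers macrophage tissue invasion through mitochondria. Embryos of both genotypes were collected at stage 11 and 29 °C and dissociated, and red fluorescent macrophages were isolated by flow cytometry. PolyA RNA was then sequenced with 50 base reads. The genotype field reads 3xMcherry-tagged macrophages for all 8 libraries, so both groups carry the fluorescent label, and group membership comes from the sample titles. The labels name neither the CG9005 allele nor the driver of the label. A developmental stage field counts from 15 to 18 over the mutant libraries and from 11 to 14 over the WT libraries, against stage 11 in the growth protocol, so it runs with genotype. It also rises with every library in replicate order, so whether it records a stage or only that order cannot be told. No label states that replicates are separate embryo collections, so p-values measure only the spread between these libraries, which may be technical.

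Genes with CR names are annotated transcripts of Drosophila for which no protein product was assigned. Most are long noncoding RNAs, made by RNA polymerase II and often capped, spliced and polyadenylated like messenger RNA. Some are precursors from which microRNAs are cut, some are transcribed antisense to a protein-coding gene, and others are small noncoding RNAs or pseudogenes. For most of them no function is known. Embryonic macrophages, also called hemocytes, migrate through the embryo, engulf dying cells and lay down basement membrane.

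Reads recovered from the TPM values numbered 15782570 to 18942786 per library. CG9005 mRNA itself lay at 75.0 to 103 TPM in the mutant libraries and 72.9 to 114 TPM in the WT libraries (log2 difference 0.03, limma adjusted p = 0.973), so its level does not check the labels. Of 12 macrophage markers found, 11 were tested and 1, the scavenger receptor gene Sr-CI, was called as higher (1.67% of all 7827 tested genes were called in either direction). Their summed level was 7126 to 8906 TPM in the mutant libraries and 5493 to 9207 TPM in the WT libraries, while Hml, a marker of later macrophages, was near 0 in both. Of the 4 crystal cell markers 1 was called as lower, and their sum was 418 to 544 TPM in the mutant libraries and 458 to 842 TPM in the WT libraries. The neuronal markers summed to 55.4 to 73.5 TPM in the mutant libraries and 45.1 to 79.6 TPM in the WT libraries, most of it elav. Each had a higher mean in the mutant, and the 3 tested ones had a median log2 difference of 0.77. The 6 muscle markers summed to 104 to 155 TPM in the mutant libraries and 102 to 150 TPM in the WT libraries. Act57B was at 10.04 ± 5.59 and bin at 9.15 ± 2.69 TPM in the mutant, against 4.27 ± 1.82 TPM for Act57B and 3.87 ± 3.70 for bin in WT (SD, n = 4 each). Mhc was also higher in the mutant, at 1.85 ± 0.776 against 0.389 ± 0.279 TPM. The marker bap went the other way, at 6.38 ± 3.93 TPM in the mutant and 10.8 ± 3.78 TPM in WT. The most abundant one, how, and Mef2 differed little (log2 difference −0.03 and 0.08). The median log2 difference of the 5 tested muscle markers was 0.08. By limma and by voom 0 neuronal and 0 muscle markers were called, and at an unadjusted p under 0.05 there were 1 neuronal and 2 muscle markers. The 3 fat body markers were listed at 0 throughout. The 4 epidermal markers summed to 60.9 to 87.9 TPM in the mutant libraries and 75.5 to 140 TPM in the WT libraries. All 4 had a log2 difference below 0. The 3 glial markers, mostly moody, summed to 70.5 to 96.4 TPM in the mutant libraries and 58.6 to 113 TPM in the WT libraries. Of the 4 epidermal and 2 glial markers tested, limma and voom called 0, and 0 were under an unadjusted p of 0.05. The part of other cell types in the differences that follow was not tested. In such sorted bulk samples fewer cells of a type and less RNA per cell cannot be told apart.

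The name mostly fitted the current annotation. Of the 118 genes, 111 are annotated as noncoding RNA in Ensembl release 115 and 1, CR43334, as a long noncoding RNA in RefSeq. Another 4 are annotated as pseudogenes (CR6900, CR43975, CR31032 and CR14033). The remaining 2 are now annotated as protein-coding, CR44404 as IBIN, a gene induced by infection, and CR43051 as CG43051. They are kept here because the rule goes by the name in the deposited table.

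One CR-named gene dominated the levels. The 6 most abundant had a mean of at least 100 TPM, 14 reached 50 TPM, 43 lay between 10 and 50 TPM and 61 lay under 10 TPM, with a median of 9.74 TPM. In every library 39 of the 118 were at 5 TPM or more, and 15 were listed at 0 in at least 1 library. A mean of 5 TPM was reached in both genotypes by 88 genes, in the mutant alone by 8 and in WT alone by 22. The last 30 passed the rule through 1 genotype, so a difference between the genotypes bears on their choice. Just inside the threshold were CR46064 (5.001 TPM), CR30055 (5.08), CR45112 (5.13) and CR44272 (5.14), and just outside it CR45961 (4.997 TPM), CR44030 (4.996), CR45943 (4.96) and CR44103 (4.91).

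**Figure D1:**
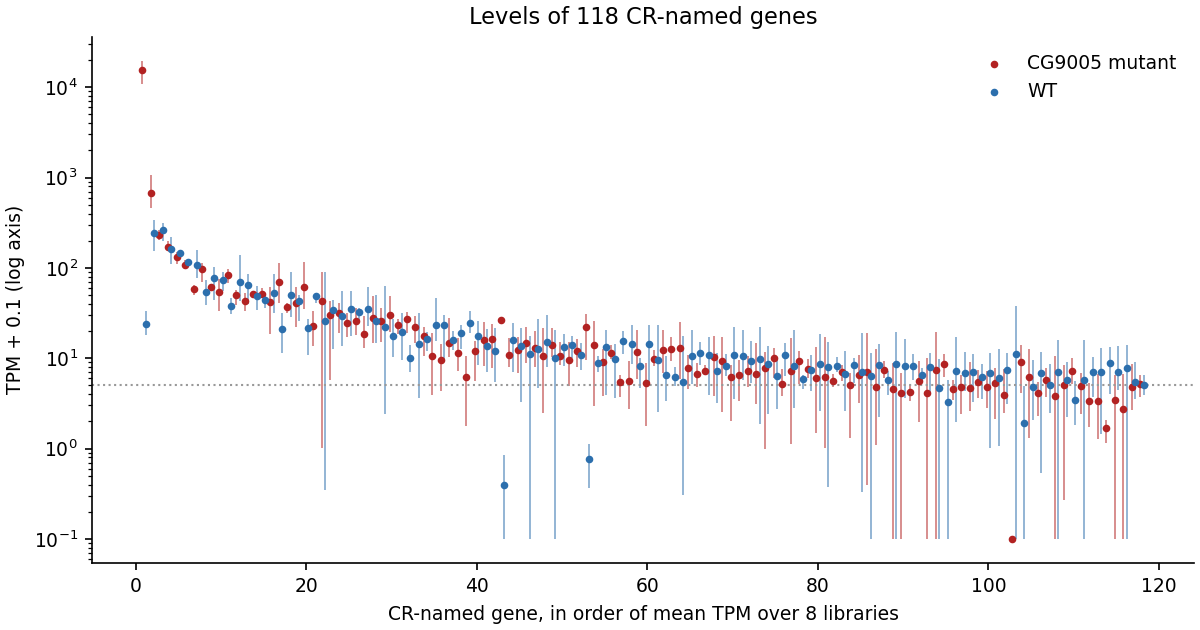
TPM + 0.1 on a log axis for the 118 CR-named genes, in order of their mean over 8 libraries. Points are group means (CG9005 mutant left of WT at each rank), lines run from the lowest to the highest library of a group, and the dotted line marks 5 TPM. CR40469 at rank 1 lies near 15320 TPM in the mutant and 23.7 TPM in WT, whereas most other genes have ranges that overlap.

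CR40469 accounted for 1.53% of all TPM in the mutant libraries, on average, and for 0.00237% in the WT libraries. With it, the 118 genes summed to 18473 ± 3780 TPM in the mutant and 2848 ± 258 TPM in WT (SD, n = 4 each). Without it the sum was 3153 ± 225 TPM in the mutant and 2824 ± 258 TPM in WT. The sum of the other 117 genes thus differed by little more than the spread within a group.

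Next to CR40469, 4 abundant CR-named genes lay at levels that overlapped between the genotypes. CR45018, a transcript of 4000 nt inside IP3K2, an inositol phosphate kinase gene (X, 13304005 to 13308004, plus strand, BDGP6), was at 204, 204, 254 and 260 TPM in the mutant and 214, 317, 316 and 198 TPM in WT. CR32218 (3L, 19895216 to 19896391, minus strand) averaged 171 ± 20.9 TPM in the mutant and 160 ± 44.3 TPM in WT (SD, n = 4 each). CR42862 (3L, 224106 to 230964) averaged 131 ± 16.6 and CR42549 (3R, 9548104 to 9551806) 106 ± 10.4 TPM in the mutant, against 145 ± 13.8 TPM for CR42862 and 117 ± 9.44 TPM for CR42549 in WT. The log2 differences of these 4 lay between −0.16 and 0.13 (limma adjusted p 0.733 to 0.859). The spliced transcripts of this set, CR42862 and CR42549, also had the lowest spread of all 118. CR43264, opposite CG15765 (X, 5831898 to 5832215, minus strand, 318 nt), was at 98.0, 70.4, 102 and 114 TPM in the mutant and 41.7, 61.0, 38.5 and 73.1 TPM in WT. WT replicate 4 reached above mutant replicate 2, and the gene was not called (log2 difference 0.86, limma adjusted p = 0.112). CR43432, now named marge (3L, 14976626 to 14977631, minus strand), averaged 53.7 ± 20.8 TPM in the mutant and 73.4 ± 14.0 TPM in WT and was not called either (limma adjusted p = 0.498).

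**Figure D2:**
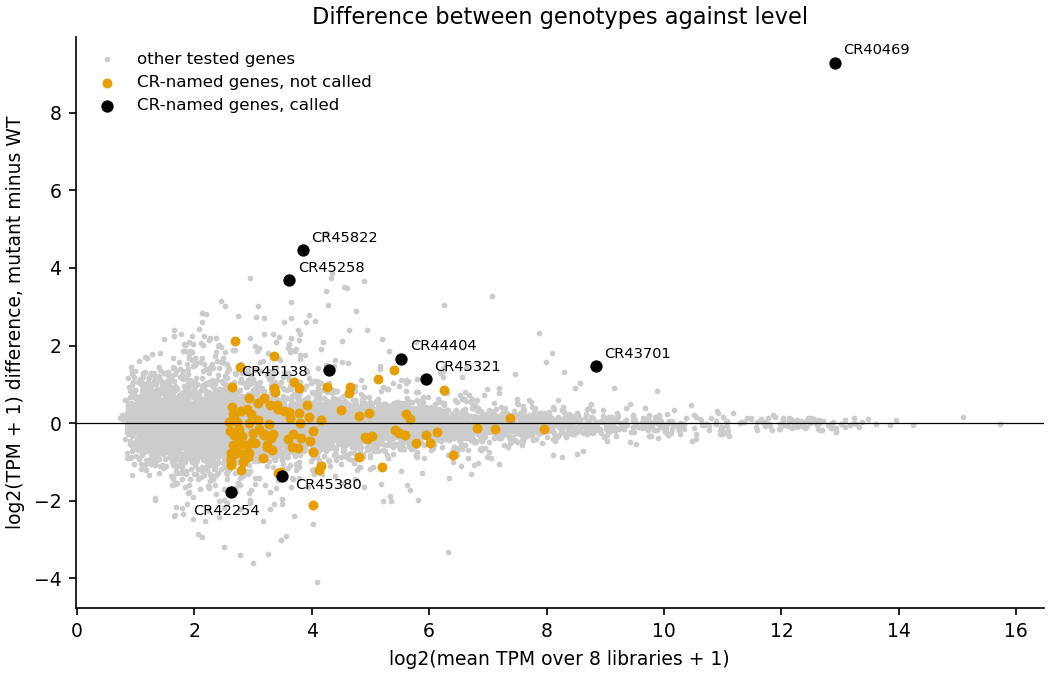
Log2(TPM + 1) difference, CG9005 mutant minus WT, against log2 of the mean TPM + 1 over 8 libraries. Grey points are tested genes, orange points CR-named genes that were not called and black points the 9 that were called, 7 above and 2 below 0, with CR40469 at 9.29.

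Between the genotypes 9 of the 117 tested CR-named genes passed limma's test at an adjusted p under 0.05 (7.69%), and 1.67% of all 7827 tested genes did. The remaining gene, CR45536, did not pass the filter on low values (1 TPM in at least 4 libraries). Of the 9, 7 were higher in the mutant (0.882% of all tested genes were) and 2 were lower (0.792% of all). These counts include the 3 genes that the rule names for their difference, and genes that passed the rule through 1 genotype, so nothing is read from them. Of the 87 tested genes that reached 5 TPM in both genotypes and are not named in the rule, 5 were called (5.75%), 4 higher and 1 lower. Of all tested genes with a mean of at least 5 TPM 1.59% were called, of the protein-coding ones among them 1.45%, and among tested CR-named genes under 5 TPM 6 of 210 were (2.86%). The difference between these shares was not tested.

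Of the 9 calls 4 held with each library left out in turn (CR40469, CR45822, CR45258 and CR45321), and the other 5 were lost without some single libraries. CR40469, CR45822 and CR45258 were named in the rule for their difference, and the last 2 reached 5 TPM in the mutant alone. Their calls here and under other settings are therefore descriptions, not support. Without mutant replicate 2 or WT replicate 2 there were 5 calls, and without mutant replicate 4 or WT replicate 1 there were 4. With voom on the recovered reads 3 were called (CR40469, CR45822 and CR43701). Those reads cover 114 of the genes, and CR45321 is not among them. Without the filter on low values 4 were called (CR40469, CR45822, CR45258 and CR45321). At an unadjusted p under 0.05 there were 30 CR-named genes, 15 in each direction, beside 12.1% of all tested genes. Over the 117 genes the median log2 difference was −0.21, and over all tested genes it was −0.06. The difference was below 0 in 68 of them (58.1%) and in 58.3% of all tested genes.

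The libraries of the genotypes did not overlap for 17 of the 118 CR-named genes (14.5% of those tested, against 7.77% of all tested genes). In 10 of them the mutant lay above WT (3.25% of all tested genes did) and in 7 below (4.52% of all). This set holds all 9 called genes and 8 that were not called, and it too includes genes chosen for their difference or through 1 genotype. Among the 87 genes that reached 5 TPM in both genotypes and are not named in the rule, the libraries did not overlap for 11 (12.6%), with the mutant above WT in 6 and below in 5.

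**Figure D3:**
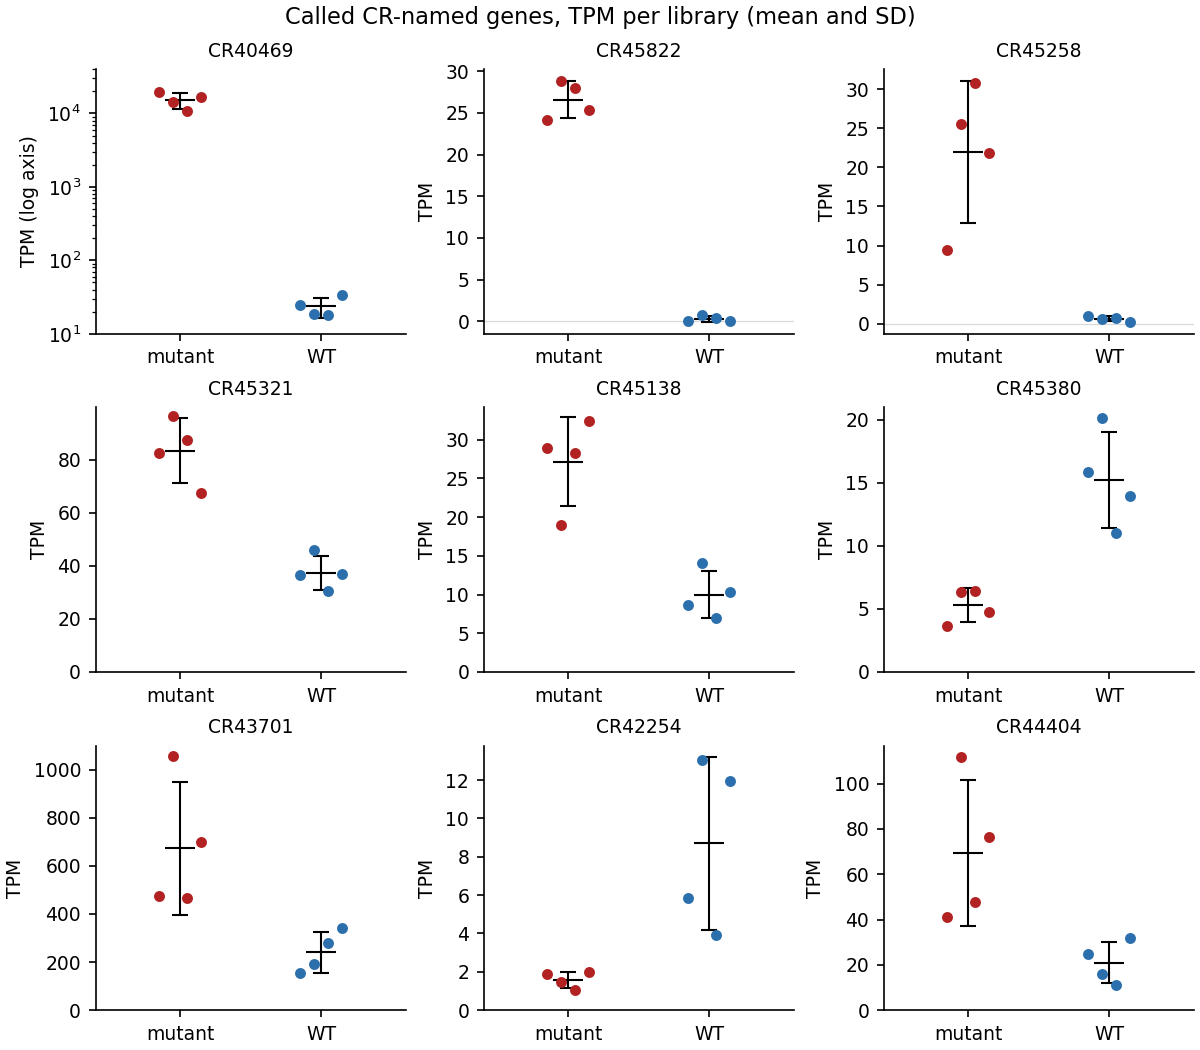
TPM in each library for the 9 called CR-named genes, with the mean and SD of each group (n = 4); CG9005 mutant is left of WT, and only CR40469 has a log axis. All 4 mutant libraries lie above all 4 WT libraries in 7 panels and below them in those of CR45380 and CR42254.

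The 3 genes that the rule names were far higher in the mutant than in WT. CR40469 is an unspliced transcript of 214 nt near one end of the X chromosome (X, 122493 to 122706, plus strand), 1663 nt from its nearest neighbour CG17636. It stood at 19671, 14268, 10718 and 16622 TPM in the mutant libraries and at 24.4, 18.5, 18.1 and 33.6 TPM in the WT libraries. The lowest mutant library was far above the highest WT library, and the log2 difference was 9.29. Recovered reads averaged 43715 in the mutant and 65.25 in WT. CG17636 was near 0 in both groups, at 0.0439 ± 0.0878 TPM in the mutant and 0.0722 ± 0.144 TPM in WT (SD, n = 4 each).

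CR45822 is annotated as an antisense RNA of CTCF, the gene of an insulator protein (3L, 7355717 to 7356598, plus strand, 882 nt), and 79.4% of its exon bases lie under CTCF exons. Its level was 24.2, 28.8, 28.1 and 25.3 TPM in the mutant libraries and 0, 0.75, 0.42 and 0 TPM in the WT libraries. The 2 WT libraries at 0 allow up to 0.234 and 0.274 TPM (3 reads, counting error only). No WT library came within reach of a mutant one. The log2 difference was 4.45 with a pseudocount of 1, and since 2 WT libraries are at 0 its size is set by the scale: it was 2.58 with a pseudocount of 5, 6.69 with one of 0.1 and 7.43 with voom. Recovered reads averaged 313.5 in the mutant and 3.25 in WT. CTCF itself was at 14.2, 12.8, 16.6 and 15.5 TPM in the mutant and 14.6, 19.2, 13.8 and 18.8 TPM in WT. Those values overlap (log2 difference −0.15, limma adjusted p = 0.840). Whether counting used strand is not given in the sources used here, so reads of the overlapping stretch cannot be assigned to one gene with certainty.

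CR45258 is an unspliced RNA of 597 nt (2L, 19327367 to 19327963, plus strand) with no overlapping gene. It was at 9.48, 25.6, 30.8 and 21.8 TPM in the mutant libraries and at 1.04, 0.62, 0.77 and 0.27 TPM in the WT libraries. Mutant replicate 1 was the lowest of its group and still lay above every WT library. The log2 difference was 3.68 on the log2(TPM + 1) scale, which understates changes of genes near 0; it was 2.17 with a pseudocount of 5 and 4.95 with voom. Its nearest neighbour, the noncoding gene CR45700, was near 0 in both genotypes (0.00611 ± 0.0122 TPM in the mutant and 0.301 ± 0.215 TPM in WT).

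Among the other called genes CR45321 was the most stable in the fits of log2(TPM + 1). This unspliced RNA of 520 nt lies 261 nt from Camta, a calmodulin-binding transcription factor gene (2R, 9445265 to 9445784, minus strand). It was at 82.4, 96.4, 87.5 and 67.5 TPM in the mutant libraries and 36.4, 45.9, 30.5 and 37.0 TPM in the WT libraries. Every mutant library lay above every WT library, with means of 83.5 ± 12.1 TPM in the mutant and 37.4 ± 6.35 TPM in WT (log2 difference 1.14, SE 0.18, limma adjusted p = 0.00700). The call held with each library left out in turn (limma adjusted p 0.0116 to 0.0356). Of 11 other settings it was lost with the stage field as a covariate (limma adjusted p = 0.227). Voom is not among them, since reads of CR45321 were not recovered and voom could not test it. Camta was at 1.21 ± 0.411 TPM in the mutant and 1.10 ± 0.707 TPM in WT (SD, n = 4 each) and was not called (limma adjusted p = 0.952).

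CR45138 and CR43701 were also higher in the mutant. CR45138, a spliced RNA of 4 exons opposite peo (2R, 9868219 to 9869159, plus strand), holds annotated roo and INE-1 transposon sequence in 20.7% of its exon bases. Its levels were 29.0, 18.9, 28.3 and 32.4 TPM in the mutant and 8.60, 14.1, 7.01 and 10.3 TPM in WT, with no overlap (log2 difference 1.37, SE 0.25, limma adjusted p = 0.0246). Reads from other copies of those transposons may be counted there, which was not tested. The call was kept without mutant replicate 2 or WT replicate 2. It was lost without any other single library (limma adjusted p 0.0538 to 0.0998) and with a replicate block (limma adjusted p = 0.0986). It was also lost without the filter, with voom and with the stage field as a covariate (limma adjusted p = 0.0594, 0.0827 and 0.501).

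CR43701, the second most abundant CR-named gene, is annotated as a small noncoding RNA of 93 nt inside stet, a rhomboid protease gene, on the opposite strand (3L, 1488739 to 1488831, plus strand). The mutant libraries held 474, 1055, 465 and 700 TPM and the WT libraries 154, 191, 278 and 342 TPM. The groups did not overlap, but mutant replicate 2 was well above the other libraries and the spread was wide (674 ± 277 TPM in the mutant and 241 ± 84.9 TPM in WT, SD, n = 4 each). The log2 difference was 1.46 (SE 0.30, limma adjusted p = 0.0354). The call was lost without mutant replicate 2 or 4 or WT replicate 1, 2 or 3 (limma adjusted p 0.0638 to 0.116). It was also lost without the filter, without limma's trend and with a replicate block (limma adjusted p = 0.0624 with the block). With the stage field as a covariate the log2 difference was 0.57 and the call was lost (limma adjusted p = 0.747). The gene stet itself was at 0.691 ± 0.181 TPM in the mutant and 0.389 ± 0.352 TPM in WT. A gene of 93 nt is not much longer than the 50 base reads, so its TPM rests on few possible read positions.

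CR44404, now IBIN, is short and unspliced (2R, 17671068 to 17671295, plus strand, 228 nt) and lies 13 nt from P32. It was at 41.1, 112, 47.7 and 76.2 TPM in the mutant and 24.7, 16.1, 11.3 and 31.8 TPM in WT. Every mutant library was above every WT library (log2 difference 1.66, SE 0.36, limma adjusted p = 0.0488). The adjusted p lay at the threshold, and the call was lost without any single library other than mutant replicate 1 or WT replicate 4 (limma adjusted p 0.0630 to 0.159). It was also lost with voom, a pseudocount of 0.1, no filter, quantile normalisation, no trend and the stage field as a covariate (limma adjusted p 0.0516 to 0.611). A replicate block lost it too (limma adjusted p = 0.0775). P32 was at 25.5 ± 3.14 TPM in the mutant and 25.9 ± 6.06 TPM in WT (SD, n = 4 each).

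The 2 called genes that fell were CR45380 and CR42254. CR45380, an unspliced RNA of 317 nt, lies 409 nt from Strip (3L, 3329281 to 3329597, plus strand). It stood at 3.67, 6.35, 6.45 and 4.74 TPM in the mutant and 15.8, 20.2, 11.0 and 14.0 TPM in WT. The groups were apart (log2 difference −1.36, SE 0.27, limma adjusted p = 0.0293), on a mean of 22 reads in the mutant and 63 in WT. Its call was kept without mutant replicate 3 or WT replicate 3. It was lost without any other library (limma adjusted p 0.0631 to 0.112) and with a replicate block (limma adjusted p = 0.0934). It was also lost without the filter, with voom and with the stage field as a covariate (limma adjusted p = 0.0738, 0.497 and 0.496). Strip was at 7.49 ± 1.41 TPM in the mutant and 9.65 ± 1.21 TPM in WT (SD, n = 4 each).

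CR42254 is antisense to BEAF-32, the gene of a chromatin boundary protein (2R, 14769599 to 14771295, minus strand, 3 exons), with 34.8% of its exon bases under BEAF-32 exons. It was at 1.86, 1.47, 1.06 and 1.98 TPM in the mutant and 5.86, 13.1, 3.90 and 11.9 TPM in WT. All mutant libraries were below all WT libraries, and the log2 difference was −1.78. It passed the rule through WT alone, so its difference bears on its choice and is a description; of the 8 fits with 1 library left out it was called only in that without WT replicate 3. BEAF-32 was at 23.8, 14.6, 27.5 and 19.4 TPM in the mutant and 29.0, 41.4, 17.7 and 30.6 TPM in WT, which overlap (log2 difference −0.43, limma adjusted p = 0.599). The authors' deposited table puts 2 of the 118 genes past an adjusted p of 0.05, CR40469 (log2 fold change 9.39) and CR45822 (7.44, on a scale whose pseudocount is not given), while CR45258 (4.97) has an adjusted p of 0.0663. Those 3 genes were named in the rule for their difference. The authors' deposited table gives CR45321 a log2 fold change of 1.20 with an adjusted p of 0.762.

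Next to the threshold were CR44417 and CR44276, both lower in every mutant library than in any WT library. CR44417, opposite Mapmodulin (2R, 17869027 to 17869857), was at 22.7 ± 8.17 TPM in the mutant and 48.5 ± 5.88 TPM in WT (log2 difference −1.12, limma adjusted p = 0.0506). CR44276 was at 10.5, 2.20, 10.2 and 1.70 TPM in the mutant and 22.2, 19.2, 22.5 and 33.1 TPM in WT (log2 difference −2.10, limma adjusted p = 0.0558). These 2, and the 6 genes that follow, were chosen after their values were seen, as the genes whose groups do not overlap and which were not called. CR44042 averaged 61.3 ± 38.3, CR30009 12.4 ± 3.23 and CR44989 8.53 ± 2.35 TPM in the mutant, against 21.3 ± 7.21 TPM for CR44042, 6.14 ± 1.45 for CR30009 and 3.19 ± 2.37 for CR44989 in WT (SD, n = 4 each). CR44619, CR45660 and CR43910 lay lower in the mutant libraries. CR44619 was at 4.10 ± 0.818 TPM in the mutant and 8.05 ± 2.31 TPM in WT. CR44619 passed the rule through WT alone and CR44989 through the mutant alone, so their differences bear on their choice and are descriptions. Over these 8 genes the adjusted p was 0.0506 to 0.468 in limma's fit.

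Transcripts that carry microRNA genes did not pass the test. They were singled out from the annotation after their values were seen: 4 of the 118 genes wholly contain an annotated microRNA gene, CR43334 has pri-bantam as a synonym, and CR31451 overlaps mir-9381 in part. CR31044 (3R, 29214562 to 29219667, plus strand) carries mir-279 and mir-996, which share their seed and limit the formation of certain sensory neurons. It was at 47.8, 60.1, 51.8 and 47.1 TPM in the mutant and 35.5, 37.0, 52.6 and 50.7 TPM in WT (log2 difference 0.24, limma adjusted p = 0.672). CR44206, which carries mir-184 (2R, 13329352 to 13344808, minus strand), averaged 42.3 ± 17.8 TPM in the mutant and 52.0 ± 23.5 TPM in WT. Both genes overlapped widely between the genotypes.

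CR43334, the precursor of bantam, a microRNA that promotes growth and restrains cell death, was at 22.7, 27.4, 18.4 and 24.9 TPM in the mutant and 21.2, 16.8, 31.2 and 9.34 TPM in WT. CR43650, of 10400 nt and the carrier of mir-8, averaged 16.2 ± 6.70 TPM in the mutant and 12.0 ± 7.13 TPM in WT, and CR43651 with mir-14 9.81 ± 1.88 TPM in the mutant and 9.38 ± 9.63 TPM in WT (SD, n = 4 each). The WT libraries spread more than the mutant ones for CR43334 and CR43651, from 2.43 to 23.5 TPM for CR43651. CR31451, now named mimi, averaged 17.6 ± 5.70 TPM in the mutant and 16.1 ± 3.10 TPM in WT. By limma 0 of the 6 were called, 0 were under an unadjusted p of 0.05, and 0 of the 5 that voom could test were called (limma adjusted p 0.672 to 0.952). These are levels of the polyadenylated precursor, and mature microRNAs were not measured.

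**Figure D4:**
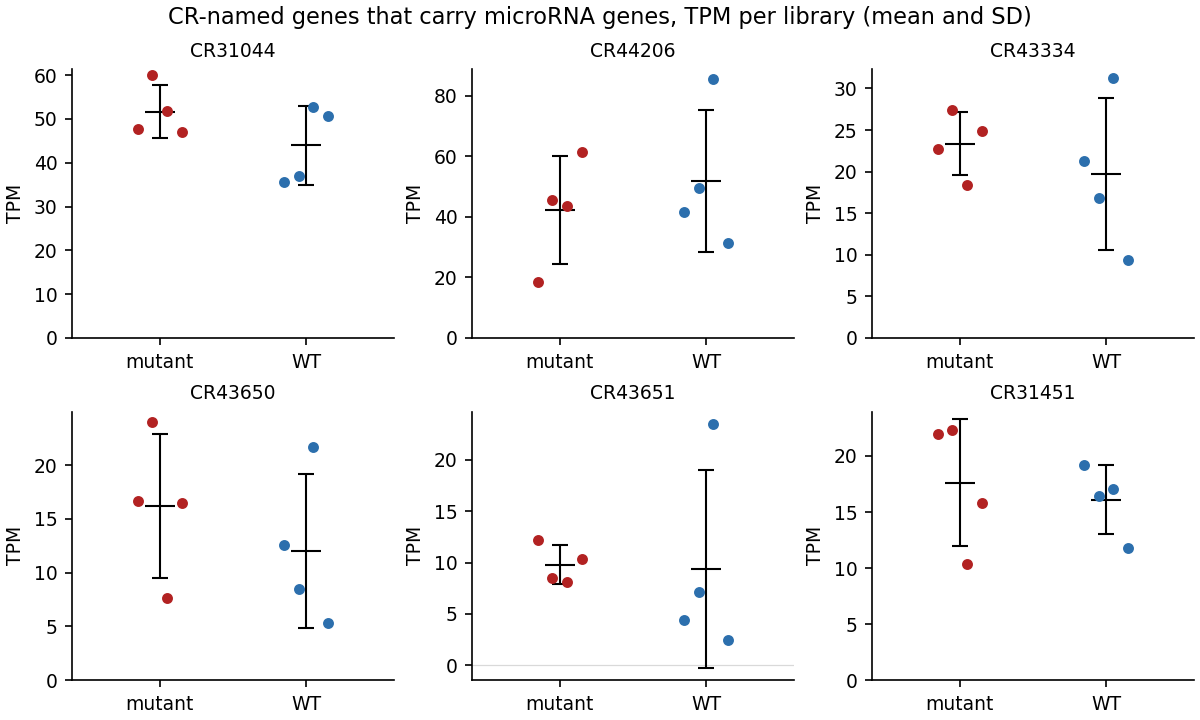
TPM in each library for 6 CR-named genes that contain or overlap microRNA genes, with the mean and SD of each group (n = 4), CG9005 mutant left of WT. In every panel the libraries of the genotypes overlap, and the highest library is a WT one for CR44206, CR43334 and CR43651.

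By position 58 of the 117 genes with an exon model overlap another gene on the opposite strand only, 22 on the same strand only and 5 on both, and 32 overlap none. Antisense overlap was thus found in 53.8%, against 38.0% of the 2604 CR-named rows with an exon model, and no overlap in 27.4% against 53.2%. This is a description of the expressed set. Genes that overlap another gene on the same strand only had the highest median level (16.8 TPM). Genes without overlap (10.03 TPM) and those with antisense overlap only (8.78 TPM) followed. The same-strand class includes genes that themselves contain a microRNA gene. Chromosome arm 3L held 34 of the 118 genes, 2R 26, X and 2L 20 each, 3R 15 and chromosome 4 held 3. Chromosome 2, where CG9005 lies, held 39.0% of them and 38.2% of all tested genes.

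Exon length had a median of 598 nt (93 to 10400), close to the 654 nt of all CR-named rows. In 55.6% of them a single exon was annotated, and in 63.9% of all CR-named rows. Near-identical copies elsewhere in the genome could not be looked for, since no genome sequence was used here.

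At least 50% of the exon bases lay under exons of the opposite strand in 29 genes, and all of them did in 4. CR43465 lies wholly under Ucp4B, a mitochondrial uncoupling protein gene, and was at 62.0 ± 4.07 TPM in the mutant and 76.6 ± 24.3 TPM in WT, where Ucp4B was at 0.251 ± 0.459 TPM in the mutant and 0.236 ± 0.472 TPM in WT (SD, n = 4 each). CR45601 lies wholly under the yolk protein gene Yp1, which was at 0.240 ± 0.300 TPM in the mutant and 0.653 ± 0.358 TPM in WT. Both antisense genes were thus expressed where the gene opposite was near 0. For CR45865 the order was the reverse, since CG4101 opposite to it was at 171 ± 12.7 TPM in the mutant and 180 ± 47.8 TPM in WT.

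Opposite-strand partners that are protein-coding and tested numbered 42, with a median of 28.5 TPM. The partner was the more abundant of the pair in 29 of 42 cases. Partners near 0, such as stet, Ucp4B and Yp1, did not pass the filter on low values and are not among the 42. The filter therefore raises both that median and that share, and neither describes all opposite-strand partners. By limma 0 of the 42 partners were called (1.67% of all tested genes were), 6 were under an unadjusted p of 0.05 (12.1% of all), and voom called 0 of 41. Same-strand partners numbered 20, with a median of 27.7 TPM. Of these, limma called 0, 1 was under an unadjusted p of 0.05, and voom called 0 of 19. Over the 42 opposite-strand pairs the log2 differences had the same sign in 20, with a correlation of −0.04. A single pair is given here, chosen after its values were seen. CR44989, which lay above WT in every mutant library, is opposite mEFG1, a mitochondrial elongation factor gene, with 90.9% of its exon bases under mEFG1 exons. CR44989 reached a mean of 5 TPM in the mutant alone (8.53 against 3.19 TPM), so its difference bears on its choice. Its partner mEFG1 was at 2.27 ± 0.459 TPM in the mutant and 5.68 ± 1.13 TPM in WT (log2 difference −1.03, limma adjusted p = 0.108).

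Several CR-named genes lie in or opposite genes that macrophages use, and these too were picked from the annotation after their values were seen. CR45660 lies within Pxn, the gene of peroxidasin, a basement membrane enzyme that macrophages secrete (3L, 2629834 to 2630693, minus strand). It was at 58.4, 65.1, 61.0 and 49.7 TPM in the mutant and 76.5, 119, 156 and 82.4 TPM in WT (log2 difference −0.82, limma adjusted p = 0.115). The mutant libraries all lay below the WT libraries. Pxn itself was at 106 ± 18.7 TPM in the mutant and 136 ± 24.8 TPM in WT (log2 difference −0.36, limma adjusted p = 0.475).

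CR44133 lies in srp, the GATA factor gene that specifies the blood lineage (3R, 15986181 to 15993665), and shares 81.4% of its exon bases with srp exons on the same strand. How reads of the shared part were counted is not given, so they cannot be assigned to either gene with certainty. It averaged 9.01 ± 4.27 TPM in the mutant and 13.2 ± 7.43 TPM in WT, and srp 25.9 ± 2.58 TPM in the mutant and 29.99 ± 10.5 TPM in WT (SD, n = 4 each). Neither was called. CR33963 lies within Tis11, the gene of an RNA-binding protein that destabilises messages, and was at 38.5, 57.3, 49.2 and 56.9 TPM in the mutant and 44.3, 54.4, 139 and 43.2 TPM in WT. WT replicate 3 alone set that gene's wide range. CR44849 is opposite NimC3, a receptor gene of the Nimrod family, which was at 37.2 ± 9.63 TPM in the mutant and 26.0 ± 5.37 TPM in WT (limma adjusted p = 0.428).

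The 4 pseudogenes and the second reannotated gene were not called. CR6900 (X, 18785805 to 18786210) had the highest level, 29.9 ± 16.7 TPM in the mutant and 33.7 ± 14.6 TPM in WT, with mutant replicate 2 at 5.58 TPM far below the other 3. CR14033 (2L, 5242699 to 5244239) was at 6.34, 5.03, 7.48 and 9.89 TPM in the mutant and 2.95, 3.24, 1.73 and 5.55 TPM in WT (log2 difference 0.94, limma adjusted p = 0.269). The genotypes overlapped by 1 library. Of these 4 pseudogenes limma called 0, 1 was under an unadjusted p of 0.05, and voom called 0. Reads of a pseudogene may be shared with its parent gene, which was not tested. CR43051, which holds a snoRNA, averaged 3.28 ± 2.32 TPM in the mutant and 7.01 ± 4.97 TPM in WT (limma adjusted p = 0.653).

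Spread between libraries of a group was wide for many CR-named genes. The SD of log2(TPM + 1) within groups had a median of 0.64 over the 118 genes. Between 5 and 10 TPM it was 0.80, against 0.44 for 1140 tested protein-coding genes at that level. From 10 to 50 TPM it was 0.66 against 0.33 (2651 genes), and from 50 TPM upward 0.36 against 0.24 (1515 genes). The median CR-named gene had 95.9 recovered reads per library, and 58 of 115 had under 100.

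The same values can be set beside those of protein-coding genes with as many reads. From 20 to 100 reads per library the median SD was 0.89 for 57 CR-named genes and 0.61 for 1241 protein-coding genes. From 100 to 500 reads it was 0.56 (42 genes) and 0.42 (2539 genes), and from 500 reads upward 0.39 (15 genes) and 0.27 (3249 genes). No test was made of these differences.

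**Figure D5:**
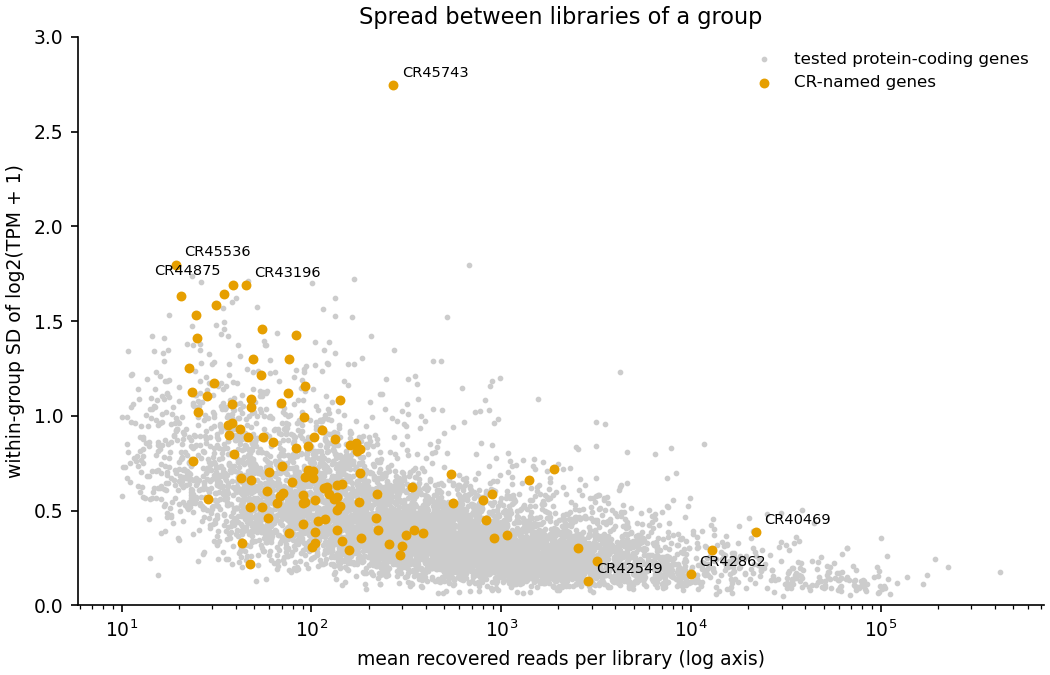
Within-group SD of log2(TPM + 1) against mean recovered reads per library on a log axis. Orange points are the 115 CR-named genes with recovered reads and grey points tested protein-coding genes; the spread falls with reads in both, and CR45743 stands highest at 2.75.

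The widest spread belonged to CR45743 (3L, 5377814 to 5378407, plus strand, 594 nt). It was at 4.83, 0.913, 74.5 and 90.1 TPM in the mutant and 9.84, 0.247, 1.55 and 90.6 TPM in WT. Both genotypes thus had libraries near 0 and libraries near 90 TPM (log2 difference 1.15, 95% interval −2.03 to 4.33, limma adjusted p = 0.827). CR45536, the gene that was not tested, was listed at 0 in every mutant library and at 0, 5.77, 0 and 38.0 TPM in the WT libraries. It passed the rule through 2 WT libraries.

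CR44875 was at 19.2, 2.49, 7.34 and 0 TPM in the mutant and 9.69, 2.22, 6.30 and 0 TPM in WT, and CR43196 at 0, 2.57, 8.74 and 6.46 TPM in the mutant and 10.3, 4.47, 19.3 and 0 TPM in WT. Each had 1 library at 0 in both genotypes. At the other end were CR42549 (SD 0.13), CR42862 (0.16), CR43910 (0.22) and CR45321 (0.23). CR43910 is the exception among these in level, at 4.83, 6.58, 6.06 and 4.72 TPM in the mutant and 7.01, 7.07, 8.52 and 10.2 TPM in WT. Its groups did not overlap and it was not called (log2 difference −0.49, limma adjusted p = 0.468).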

How the data were processed

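Values were transcripts per 1000000 (TPM), deposited by the authors as 1 column per library. The submitters' processing notes name build BDGP6 and, with no role, HTSeq 0.5.4p3, STAR 2.5.1b, limma, edgeR and R 3.4.4; whether counting used strand is not given in the sources used here. Per the file headers, the authors' deposited comparison table, present in 4 identical copies, holds group means in TPM, SDs and a signed fold change (a score, with a minus sign for a fall), log2 fold changes and p-values, raw and adjusted, for 11058 genes.

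TPM times Ensembl release 115 exon length gave whole reads (tolerance 0.05 reads) for 98.8% to 99.0% of genes per library. This share is over genes above 0 with an exon length, and leaves out those with the most reads. TPM are not counts, so log2(TPM + 1) was tested with limma 3.58.1 (R 4.3.3), using an intensity trend and no covariate. A gene needed 1 TPM or more in 4 or more libraries (7827 did), with Benjamini-Hochberg adjustment over all of them, and called at an adjusted p under 0.05. Differences are CG9005 mutant minus WT; intervals are at 95%. Alternatives were each library left out, a replicate block, the stage field as a covariate, other pseudocounts, filters and normalisations, limma without trend or with array weights, and voom on the recovered reads. The fit was also run on simulated reads with the same spread setting for every gene. That setting does not follow the wide spread of many CR-named genes, so nothing is read from that run.

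The genes, lists and tests were chosen with earlier results of these data known. Named are the 3 genes in the rule, every called gene, the 12 highest, the 4 of highest and of lowest spread, the 4 on either side of the threshold, and the overlapping or nearest genes of named ones. Others were chosen after their values were seen and are marked so. Exon models, overlaps and coordinates are from Ensembl, except for CR43334. Recovered reads exist for 115 of the 118 genes (not CR45321, CR43334 and CR46064). Sequences were not used here.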

Additional observations from a re-analysis of the deposited data

Results flagged for a closer look

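Among the CR-named genes named in the report, 53 groups of 4 libraries with a range above 0 were examined for 1 library far from the other 3 by Dixon's critical value. In 5 groups, all of them WT, 1 library stood apart; chance gives about 1 in 20, or 2.65 of 53, but that rate does not hold for CR45743 and CR45536, which were named for their wide spread. CR33963 was highest in WT replicate 3 at 139 TPM, with the next library at 54.4 TPM. CR42862 was lowest in the same library, at 124.6 TPM, with the next at 150.1 TPM. WT replicate 4 was highest for CR45743 (90.6 TPM, next 9.84 TPM) and for CR45536 (38.0 TPM, next 5.77 TPM). CR44272 was highest in WT replicate 1, at 13.7 TPM, with the next at 4.95 TPM. None of these 5 genes was called.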

How the results depend on the processing

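As reported, 131 genes were called, 9 of them CR-named (7 higher, 2 lower). Leaving out 1 library gave 71 to 110 genes, 4 to 8 CR-named genes, 4 to 6 higher and 0 to 2 lower. Counts of all genes, CR-named genes, higher and lower were 52, 4, 4 and 0 with the replicate block, 9, 3, 3 and 0 with the stage field as a covariate, 76, 4, 4 and 0 without a filter, and 87, 3, 3 and 0 with voom. The filter of 5 TPM called 82 genes, with 1 CR-named gene lower, and array weights gave the highest counts, 178 genes and 12 CR-named ones, 7 higher and 5 lower. Other pseudocounts, normalisations, rescaling without CR40469 and limma without the trend gave 92 to 136 genes and 7 to 10 CR-named genes.

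For the 3 genes named in the rule these calls are descriptions, not support. The block kept CR40469, CR45822, CR45258 and CR45321. Same-numbered libraries correlated at −0.15 to 0.08 in their deviations over 4 pairs, and differently numbered ones at −0.19 to 0.14. No label says whether same-numbered libraries were made together, and these correlations cannot decide it. The stage field runs with genotype, and a covariate that does so widens the error. A minimum mean of 2 TPM would give 249 genes and one of 10 TPM 57. No called CR-named gene changed the sign of its log2 difference under any setting run. Depth limits the lowest genes, down to a mean of 19.25 reads per library; 0 reads allow up to 3.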

Other observations

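Noncoding genes with names of their own gave a few further values. Of 30 found from a list chosen with earlier results known, 16 were tested, 1 was called as higher and 0 as lower by limma (1.67% of all tested genes were called); 3 were under an unadjusted p of 0.05 (12.1% of all), and voom called 1 of 15. The called gene was Uhg5, a host gene of small nucleolar RNAs, which are cut from its introns and guide ribosomal RNA modification. It was at 235, 223, 222 and 198 TPM in the mutant and 125, 154, 142 and 143 TPM in WT (log2 difference 0.63, limma adjusted p = 0.0269), with no overlap between the groups. Uhg2, another such host gene, was at 560, 391.96, 436 and 441 TPM in the mutant and 324, 265, 138 and 288 TPM in WT, also without overlap (log2 difference 0.90, limma adjusted p = 0.106). Uhg7 was the most abundant of the list, at 983 ± 170 TPM in the mutant and 1107 ± 68.1 TPM in WT (SD, n = 4 each). The dosage compensation RNA roX1 averaged 97.2 ± 3.27 TPM in the mutant and 136 ± 41.9 TPM in WT (limma adjusted p = 0.361).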
